A study of Mus musculus with 24 samples.

Results

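The genes described here are 9 components of the DNA methylation and demethylation machinery, Dnmt1, Uhrf1, Dnmt3a, Dnmt3b, Tet1, Tet2, Tet3, Mbd2 and Trim28. They were chosen by name for their function, and are 9 of the 25746 genes listed in the count files. RNAseq of the liver was performed in 24 C57BL/6N mice aged 12 weeks, in groups of 6 male wildtype (mWT), male knockout (mKO), female wildtype (fWT) and female knockout (fKO) mice. The knockout (KO) mice were homozygous for a CRISPR/Cas9 deletion of the whole cluster of major urinary protein (Mup) genes, and the WT mice were homozygous for the intact cluster. Heterozygous mice of the line had been intercrossed to obtain homozygous animals. The deletion came from a single founder male. All mice were housed with standard chow ad libitum and gave 1 library each. Before the livers were taken, the mice were fasted for a few hours and anaesthetised for a microCT scan. DNA methylation itself is not in these files, so the values below are transcript levels of the enzymes and their cofactors, not methylation levels.

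In mammalian DNA, methyl groups are placed mainly on cytosines that are followed by a guanine (CpG). Dnmt1 copies this pattern onto the new strand after DNA replication, guided by Uhrf1, which binds the half-methylated sites, while Dnmt3a and Dnmt3b place methyl groups on unmethylated sites. Tet1, Tet2 and Tet3 oxidize the methyl group as the opening step of its removal, Mbd2 binds methylated CpG and recruits the NuRD repressor complex, and Trim28 (also known as KAP1) is the corepressor through which KRAB zinc finger proteins silence transposable elements and imprinted regions. In the adult liver most hepatocytes are not dividing, and maintenance of the pattern is tied to replication.

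The total count ranged from 15361901 to 26261394 per library, and 3 counts correspond to at most 0.199 counts per 1000000 reads (CPM, scaled here with the TMM normalization of edgeR), a limit that covers counting error only. The summed level of 22 Mup genes was 17028 to 37393 CPM in mWT and 3395 to 5259 CPM in fWT mice, and did not exceed 0.457 CPM in any KO mouse. The 4 Y-linked marker genes were detected in all 12 males, and in females in 1 fKO library with 2 reads at most. All 6 hepatocyte markers, albumin among them, were detected in every group, and their summed level was 91065 to 145880 CPM per mouse.

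Normalised to the summed length of the annotated exons, the 9 genes spanned a wide range of levels in the liver. Trim28 was expressed at 11.8 ± 1.17 CPM per kb (SD, n = 24) and Mbd2 at 11.8 ± 1.44 CPM per kb (SD, n = 24). Their ranges over the mice overlapped, and Trim28 lay above Mbd2 in 10 of 24 mice. The next genes in the order of levels per kb were Tet3 with 1.5 ± 0.197 CPM per kb (SD, n = 24), Tet2 with 1.29 ± 0.273, Dnmt1 with 1.19 ± 0.166 and Dnmt3a with 1.18 ± 0.188. Neighbours within these 4 genes overlapped, but the lowest mouse for Mbd2 lay above the highest mouse for Tet3. Likewise, the lowest mouse for Dnmt3a lay above the highest mouse for Dnmt3b, the next gene in the order. Dnmt3b was at 0.247 ± 0.102 CPM per kb (SD, n = 24), below Dnmt3a in every mouse. Uhrf1 at 0.0736 ± 0.0533 and Tet1 at 0.0210 ± 0.0095 CPM per kb (SD, n = 24) were the lowest of the 9. The length taken for a gene moved the order among close neighbours, and with the length of the longest transcript Mbd2 came before Trim28, Tet2 before Tet3 and Dnmt3a before Dnmt1.

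**Figure D1:**
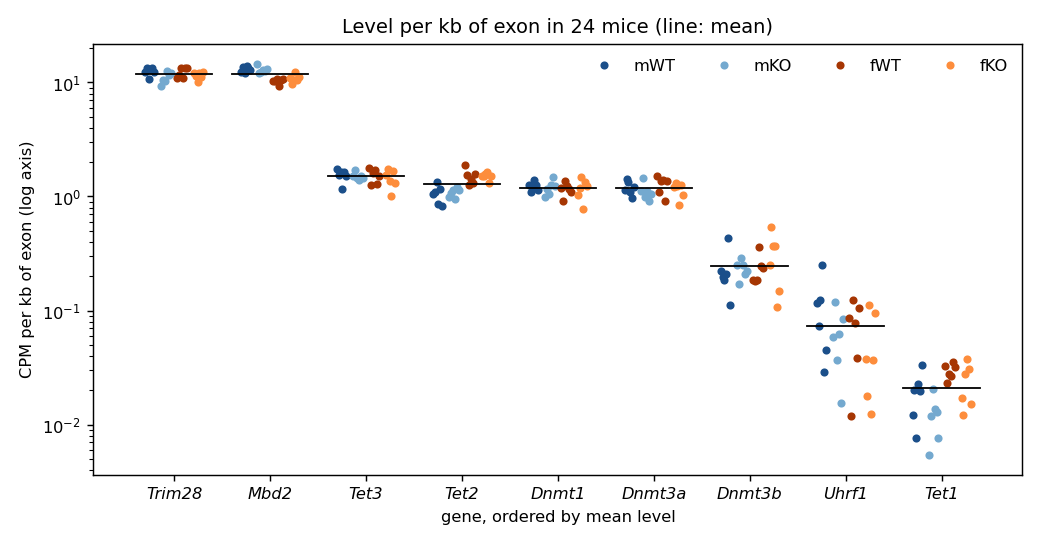
Level of each gene in CPM per kb of annotated exon (log axis), one point per mouse, coloured by group, with the mean over 24 mice as a line. Trim28 and Mbd2 lie at 11.8 CPM per kb, Tet3, Tet2, Dnmt1 and Dnmt3a between 1.18 and 1.5, and Dnmt3b, Uhrf1 and Tet1 below.

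Of the 9 genes, 7 passed the filter for testing, which asked for 0.66 CPM or more in 6 or more libraries, as did 12330 genes in all. Uhrf1 and Tet1 did not pass it. The coordinates below are those of the GENCODE M21 annotation of GRCm38, and CPM refers to the reads of the tested genes after TMM scaling of the library sizes. All contrasts came from 1 fit of edgeR's quasi-likelihood model to the 24 libraries, so contrasts with a group in common share its mice. Adjusted p-values are Benjamini-Hochberg values over the 12330 genes, or over the 18682 genes with any reads where a gene was fitted without the filter.

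The first question was whether the deletion of the Mup cluster moved the expression of this machinery in the liver. None of the 7 tested genes passed the test between KO and WT mice. At an adjusted p-value under 0.05, 0 of the 7 were counted for males, where 0.211% of all tested genes passed, 0 for females, where the share over all genes was 0.0892%, and 0 averaged over the sexes, where it was 0.17%. At an unadjusted p-value under 0.01, 0 of the 7 genes were counted in either sex, against 3.52% of all tested genes in males and 0.876% in females. At an unadjusted p-value under 0.05, 1 of the 7 genes, Trim28, was counted in males and 0 in females, against 10.6% and 4.87% of all tested genes. With DESeq2 in place of edgeR, these 3 counts were 0 as well. The median log2 fold change over the 7 genes was −0.04 in mKO compared to mWT and 0.01 in fKO compared to fWT mice, and that over all tested genes was −0.00212 and −0.00264.

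Among the maintenance genes, Dnmt1 (ENSMUSG00000004099, chr9:20907209-20959888, − strand) was expressed in the lowest, median and highest mouse at 8.03, 9.11 and 10.3 CPM in mWT and at 7.28, 8.88 and 10.9 CPM in mKO. In females the values were 6.79, 8.72 and 10.1 CPM in fWT and 5.73, 8.89 and 10.9 CPM in fKO. The groups overlapped almost entirely, and the fKO mouse at 5.73 CPM (number 4) was the lowest of all 24. For Dnmt1 the log2 fold change was −0.04 (95% interval −0.30 to 0.22, adjusted p = 0.954) in males and 0.01 (−0.24 to 0.27, adjusted p = 0.993) in females.

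Uhrf1 (ENSMUSG00000001228, chr17:56303321-56323486, + strand), the partner that brings Dnmt1 to replicated DNA, gave between 1 and 21 reads per library. Its level was 0.122, 0.406 and 1.06 CPM in mWT and 0.0663, 0.257 and 0.503 CPM in mKO (lowest, median and highest mouse), and 0.0511, 0.347 and 0.525 CPM in fWT and 0.0526, 0.158 and 0.479 CPM in fKO. Only 1 mouse of 24, a mWT mouse, reached 0.66 CPM, and many values lay close to the limit set by 3 counts. When the 18682 genes with any reads were fitted without the filter, its log2 fold change was −0.75 in males (95% interval −1.78 to 0.28, adjusted p = 0.750) and −0.57 in females (−1.65 to 0.51, adjusted p = 0.871). A change in either direction was therefore not detectable at this depth unless it was large.

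The de novo methyltransferase Dnmt3a (ENSMUSG00000020661, chr12:3806007-3914443, + strand) was expressed at 16.0, 19.6 and 23.8 CPM in mWT and at 15.3, 18.0 and 24.2 CPM in mKO (lowest, median and highest mouse). In females it was at 15.2, 22.7 and 25.0 CPM in fWT and at 13.9, 20.4 and 21.9 CPM in fKO. The medians of the KO groups lay below those of the WT groups, but the ranges overlapped widely in both sexes. Its log2 fold change was −0.11 (95% interval −0.37 to 0.16, adjusted p = 0.854) in males and −0.14 (−0.40 to 0.12, adjusted p = 0.944) in females. An antisense gene, Dnmt3aos, overlaps 133 exonic bases of Dnmt3a, and reads from both could be told apart there only if the counting used strand.

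Its relative Dnmt3b (ENSMUSG00000027478, chr2:153649450-153687730, + strand) gave between 9 and 73 reads per library. It was expressed at 0.573, 1.03 and 2.20 CPM in mWT, 0.869, 1.2 and 1.48 CPM in mKO, 0.919, 1.08 and 1.85 CPM in fWT and 0.548, 1.57 and 2.75 CPM in fKO (lowest, median and highest mouse). The fKO mice were the most spread, with 3 mice above and 2 mice below all fWT mice. The fitted log2 fold change was 0.04 (95% interval −0.63 to 0.72, adjusted p = 0.984) in males and 0.35 (−0.28 to 0.98, adjusted p = 0.944) in females. Without fKO mouse 2, the highest of its group, the female estimate was 0.068, and over all fits with 1 mouse left out it ran to 0.53. A transcript of Dnmt3b shares a stretch of 1434 bases at 90% identity or more with Dnmt3c, a rodent-specific copy, so reads of both genes may have been split or left out in counting.

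Tet1 (ENSMUSG00000047146, chr10:62804570-62908996, − strand), an oxidase best known from embryonic stem cells, was close to the limit of detection, with 2 to 12 reads per library. Its level was 0.117, 0.308 and 0.509 CPM in mWT, 0.0832, 0.191 and 0.316 CPM in mKO, 0.357, 0.459 and 0.549 CPM in fWT and 0.189, 0.346 and 0.578 CPM in fKO (lowest, median and highest mouse). The KO and WT mice of each sex overlapped. Without the filter, the log2 fold change was −0.68 in males (95% interval −1.5 to 0.14, adjusted p = 0.716) and −0.33 in females (−1.0 to 0.33, adjusted p = 0.876). Stretches that sum to 214 bases of its transcript match other listed genes at 90% identity or more, which adds to the uncertainty of such low counts.

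Tet2 (ENSMUSG00000040943, chr3:133463679-133545139, − strand), which is frequently mutated in blood cancers, was expressed at 14, 18.1 and 22.8 CPM in mWT and at 16.0, 18.5 and 20.3 CPM in mKO (lowest, median and highest mouse). In females it was at 21.3, 25.0 and 32.0 CPM in fWT and at 22.1, 25.6 and 27.7 CPM in fKO. Within each sex the KO mice lay inside the spread of the WT mice, and both female groups lay above both male groups with little or no overlap. The log2 fold change of KO compared to WT was 0.04 (95% interval −0.18 to 0.25, adjusted p = 0.953) in males and 0.01 (−0.20 to 0.22, adjusted p = 0.995) in females. The antisense gene Gm42567 overlaps 43 exonic bases of Tet2.

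Tet3 (ENSMUSG00000034832, chr6:83362373-83459084, − strand), the oxidase that acts on the paternal genome in the zygote, was expressed at 19.6, 26.6 and 28.9 CPM in mWT, 23.1, 24.7 and 28.5 CPM in mKO, 21, 26.0 and 29.9 CPM in fWT and 16.8, 24.3 and 29.2 CPM in fKO (lowest, median and highest mouse). All 4 groups overlapped, and the lowest value belonged to the same fKO mouse that was lowest for Dnmt1. The log2 fold change was −0.04 (95% interval −0.27 to 0.19, adjusted p = 0.953) in males and −0.08 (−0.31 to 0.15, adjusted p = 0.960) in females.

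The methyl-CpG reader Mbd2 (ENSMUSG00000024513, chr18:70568189-70626131, + strand) was expressed at 39.0, 42.3 and 44.6 CPM in mWT and at 38.7, 40.7 and 47.1 CPM in mKO (lowest, median and highest mouse). In females it was at 30.2, 33.5 and 34.3 CPM in fWT and at 31.2, 34.6 and 39.8 CPM in fKO. The KO and WT mice of each sex overlapped. The medians of the female groups lay below those of the male groups, but the highest fKO mouse reached into the male range. The log2 fold change of KO compared to WT was −0.02 (95% interval −0.14 to 0.11, adjusted p = 0.969) in males and 0.07 (−0.05 to 0.20, adjusted p = 0.942) in females.

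Trim28 (ENSMUSG00000005566, chr7:12999114-13031035, + strand) was expressed at 45.0, 52.5 and 55.6 CPM in mWT and at 38.4, 45.7 and 52.8 CPM in mKO (lowest, median and highest mouse). In females it was at 45.8, 51.9 and 55.8 CPM in fWT and at 41.6, 48.6 and 51.1 CPM in fKO. The ranges overlapped, with 3 mKO mice below all mWT mice and 1 fKO mouse below all fWT mice. In males the log2 fold change was −0.18 (95% interval −0.34 to −0.01, unadjusted p = 0.0342, adjusted p = 0.421), and in females it was −0.09 (−0.25 to 0.07, unadjusted p = 0.250, adjusted p = 0.943). Averaged over the sexes it was −0.13 (standard error 0.0557, unadjusted p = 0.0231, adjusted p = 0.432), and 9.57% of all tested genes had an unadjusted p-value under 0.05 in that contrast. The difference of Trim28 between KO and WT mice did not hold up over all genes tested.

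**Figure D2:**
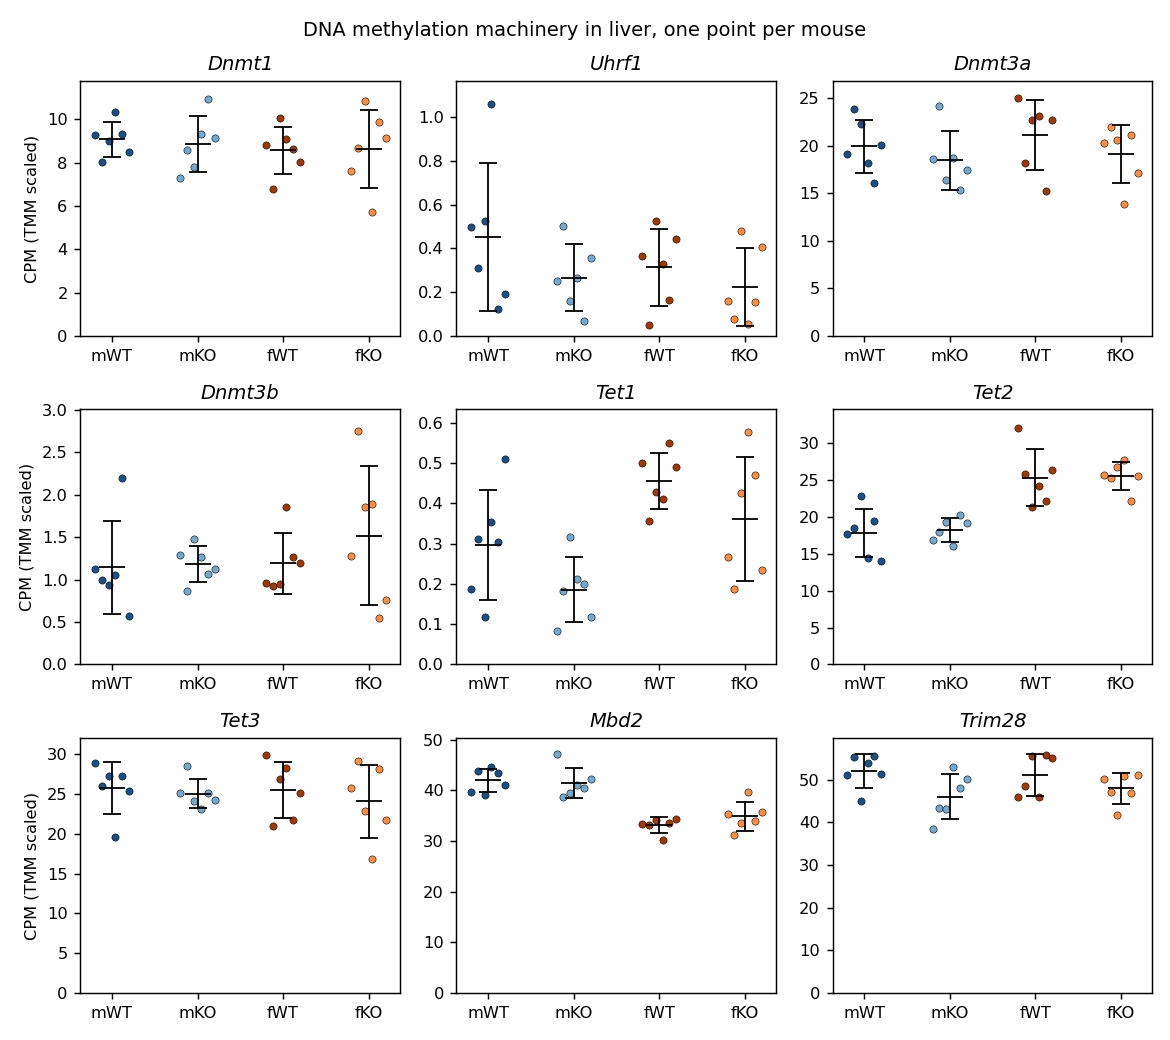
Level of the 9 genes in CPM (linear axes from 0), one point per mouse for mWT, mKO, fWT and fKO, with the mean and the SD of 6 mice as lines. KO and WT mice of the same sex overlap for every gene, whereas Tet2 lies higher in the female groups and Mbd2 higher in the male groups.

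Whether the effect of the KO differed between the sexes was tested as an interaction. Of the 7 genes, 0 had an adjusted p-value under 0.05 and 0 an unadjusted p-value under 0.05, against 0.00811% and 5.96% of all tested genes, and DESeq2 gave 0 as well. The estimates ran from −0.31 for Dnmt3b (95% interval −1.23 to 0.62, adjusted p = 0.941, and −0.49 to −0.021 with 1 mouse left out) to 0.04 for Tet3 (−0.29 to 0.37, adjusted p = 0.982). For Trim28 the interaction was −0.08 (−0.31 to 0.14, adjusted p = 0.940), so the lower estimate in males than in females lay within the error.

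The comparison of male with female livers gave a different picture. Tet2 was lower and Mbd2 higher in males, in WT and in KO mice alike, and none of the other 5 tested genes passed the test. These are 2 of 7 genes in each genotype, where 17.3% of all tested genes passed in WT and 14.4% in KO mice, and 8.55% passed in both genotypes in the same direction. Averaged over the genotypes, the count was again 2 of 7, against 30.4% of all tested genes. The share of the set that differed between the sexes was thus close to that of expressed genes in general in the averaged contrast.

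The log2 difference of Tet2 between males and females was −0.51 in WT (95% interval −0.73 to −0.29, adjusted p = 0.00118) and −0.48 in KO mice (−0.70 to −0.27, adjusted p = 0.00194). Averaged over the genotypes it was −0.50 (standard error 0.0743, adjusted p = 1.05e-05). All 6 mKO mice lay below all 6 fKO mice, which held for 7.26% of all tested genes in either direction, and 5 of 6 mWT mice lay below all fWT mice. Over both genotypes, 11 of 12 males lay below every female. The sex difference of Tet2 was not distinguishable between the genotypes, with an interaction of 0.03 (95% interval −0.28 to 0.33, adjusted p = 0.985).

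The log2 difference of Mbd2 between males and females was 0.34 in WT (95% interval 0.21 to 0.47, adjusted p = 0.000288) and 0.25 in KO mice (0.12 to 0.38, adjusted p = 0.00626). Averaged over the genotypes it was 0.29 (standard error 0.0438, adjusted p = 9.28e-06). All 6 mWT mice lay above all 6 fWT mice, as for 7.7% of all tested genes in either direction. In KO mice, 4 of 6 mKO mice lay above every fKO mouse, since the highest fKO mouse (number 4, 39.8 CPM) reached into the male range. The sex difference was smaller in KO than in WT mice, but the interaction of −0.09 (95% interval −0.27 to 0.09, adjusted p = 0.925) did not separate them.

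The remaining tested genes did not pass the test between the sexes in either genotype. Averaged over the genotypes, the log2 difference was 0.06 for Dnmt1 (95% interval −0.13 to 0.24, adjusted p = 0.667), −0.07 for Dnmt3a (−0.26 to 0.11, adjusted p = 0.584), 0.03 for Tet3 (−0.13 to 0.20, adjusted p = 0.792) and −0.02 for Trim28 (−0.13 to 0.10, adjusted p = 0.842). For Dnmt3b it was −0.21 with a wide interval (−0.67 to 0.25, adjusted p = 0.503). Tet1, when fitted without the filter, was lower in males with a log2 difference of −0.78 (standard error 0.257, adjusted p = 0.0307), and 5 of 12 males lay below every female. This value rests on 2 to 12 reads per library and on a fit that includes genes too low for the test above, and neither genotype passed alone (adjusted p = 0.310 in WT and 0.131 in KO mice). Uhrf1 gave 0.45 (standard error 0.368, adjusted p = 0.440) in the same fit.

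**Figure D3:**
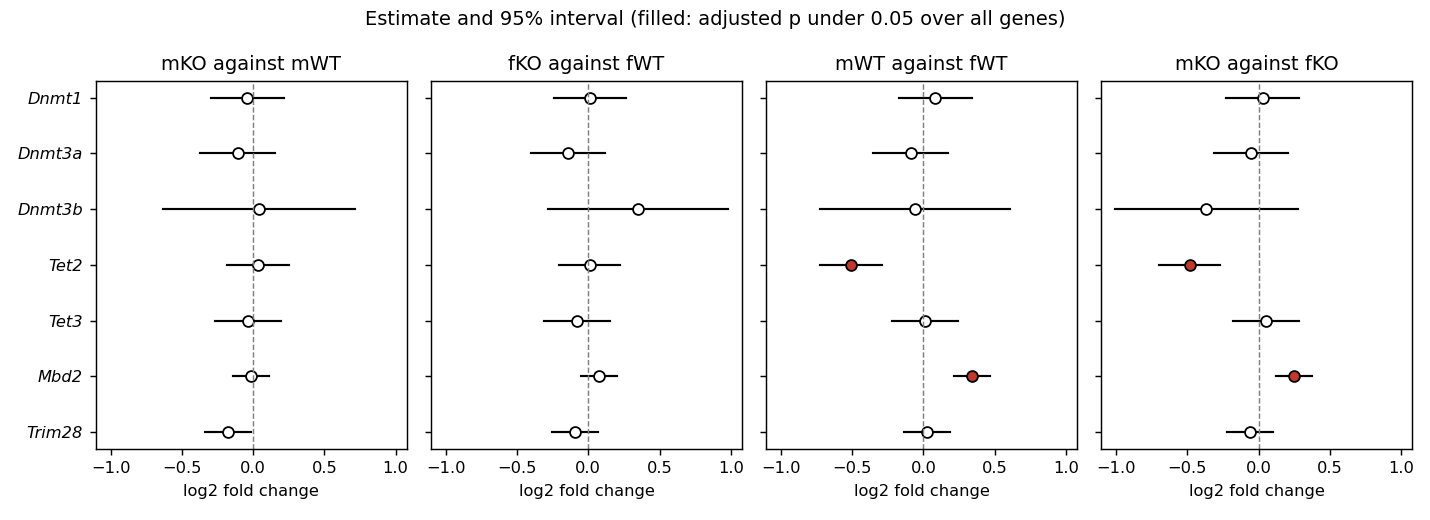
Log2 fold change with its 95% interval for the 7 tested genes in the KO effect in males and females and in the sex difference in WT and KO mice (positive means higher in the first group named). Filled points have an adjusted p-value under 0.05 over all tested genes, and only Tet2 and Mbd2 in the panels comparing the sexes are filled.

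Liver tissue holds other cells beside hepatocytes, and in bulk samples fewer cells of a type and less RNA per cell cannot be told apart. Markers of several of these cell types moved with sex. The counts of markers are those at an adjusted p-value under 0.05 averaged over the genotypes, where 15.9% of all tested genes were lower and 14.5% higher in males. Of the 6 Kupffer cell markers, 5 were lower in males, with a median log2 difference of −0.59 and a summed level of 74.2 to 207 CPM in males and 116 to 260 CPM in females. In WT mice alone 4 of them passed and in KO mice alone 0. Of the 6 endothelial markers 4 were lower in males (summed level 147 to 181 CPM in males and 157 to 227 CPM in females), of the 6 stellate cell and fibroblast markers 3 (171 to 320 and 225 to 333 CPM), and of 4 tested lymphocyte markers 2 (sum of 7 listed markers 5.56 to 12.3 and 7.63 to 19.6 CPM). All 5 erythroid markers were higher in males, at 149 to 260 CPM summed in males and 40.5 to 67.8 CPM in females. In WT mice alone 1 of them passed and in KO mice alone 5. No interaction of KO and sex passed in the Kupffer cell or the erythroid list. Of the 6 hepatocyte markers, 2 were higher and 1 was lower in males. None of these markers was at 0 in either sex, and their part in the sex difference of Tet2 and Mbd2 was not tested. Between KO and WT mice, 0 markers of these cell types passed the test in either sex, against 0.211% of all tested genes in males and 0.0892% in females.

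A RefSeq promoter window of Tet2 is shown beside one of Tet3 because the 2 oxidases had similar levels and only Tet2 differed between the sexes. Each window runs from 250 bases before to 50 bases after the RefSeq start of transcription in GRCm38.p6, at chr3:133544341-133544640 (− strand) for Tet2 and at chr6:83441629-83441928 (− strand) for Tet3, and is written 5′ to 3′ with every CpG in capitals.
Tet2: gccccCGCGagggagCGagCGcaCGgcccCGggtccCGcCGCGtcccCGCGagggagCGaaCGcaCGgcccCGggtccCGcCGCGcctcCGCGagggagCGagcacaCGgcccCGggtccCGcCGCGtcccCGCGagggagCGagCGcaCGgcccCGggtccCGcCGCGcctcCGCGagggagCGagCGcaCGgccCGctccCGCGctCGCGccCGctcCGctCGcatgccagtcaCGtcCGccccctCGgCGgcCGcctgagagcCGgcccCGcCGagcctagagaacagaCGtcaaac
Tet3: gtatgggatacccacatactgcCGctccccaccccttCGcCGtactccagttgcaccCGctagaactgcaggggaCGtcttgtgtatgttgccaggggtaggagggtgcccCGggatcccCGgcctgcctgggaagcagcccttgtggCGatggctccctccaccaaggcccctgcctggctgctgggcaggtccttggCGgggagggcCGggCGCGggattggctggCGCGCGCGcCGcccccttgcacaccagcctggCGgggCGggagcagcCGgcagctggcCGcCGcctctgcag
Both windows lie inside the genes as annotated above, which on the − strand begin at 133545139 for Tet2 and at 83459084 for Tet3. Starts farther upstream, mainly of Tet3, are thus not covered. The Tet2 window held 57 CpG sites in 300 bases and the Tet3 window 22, while the median over 32851 mouse promoters of this length was 7. More sites than 99.8% of all promoters made the Tet2 window the densest of the 13 windows found for 8 of the 9 genes. In the others the number ran from 2, in 1 of 3 windows of Dnmt1, to 47 in 1 of 3 windows of Dnmt3a. The motif TTCNNNGAA, which reads the same on both strands and is bound by STAT factors such as Stat5, a transducer of sex-dependent growth hormone signals in the liver, was searched in the same windows. It was found in 0 of the 13 windows, and 8.30% of all promoters held it at least once. This count says only that these letters are not in these windows. No window was found for Mbd2, the other tested gene that differed between the sexes, so it was not searched.

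Genes that act together with the 9 were grouped in 7 lists of 61 genes, of which 55 were tested. Of these, 0 passed at an adjusted p-value under 0.05 between KO and WT mice in either sex, and the median log2 fold change was −0.04 in males and −0.00138 in females. At an unadjusted p-value under 0.05, 5 genes were counted in males, all lower in KO (5.27% of all tested genes), and 2 in females, both higher in KO (2.49%). Trim24, a relative of Trim28 that acts as a cofactor of nuclear receptors, had −0.57 in males (standard error 0.140, unadjusted p = 0.000422, adjusted p = 0.102). The counts for these lists were taken from the edgeR fit alone.

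Between the sexes, 19 of the 55 genes passed averaged over the genotypes, 14 higher and 5 lower in males, against 14.5% and 15.9% of all tested genes. In WT mice 8 were higher and 3 lower, against 8.51% and 8.81% of all tested genes, and in KO mice 5 were higher and 1 lower, against 7.26% and 7.13%. The median log2 difference over the 55 genes was 0.03 in the averaged contrast, and that over all tested genes −0.00142.

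Unless a genotype is named, the counts by list below are averaged over the genotypes, where 30.4% of all tested genes passed in either direction. In the maintenance list of 7 tested genes, only the DNA ligase Lig1 passed, with a log2 difference of −0.42 (adjusted p = 0.0128). In neither genotype alone did it pass. Of the 4 tested partners of the de novo enzymes, the histone methyltransferase Nsd2 passed at 0.23 (adjusted p = 0.0140), but not in KO mice alone. In the list of demethylation and base excision repair, 3 of 12 passed. The repair polymerase Polb was higher in males by 0.41 (adjusted p = 1.63e-05), with all 6 mWT mice above all fWT mice. The endonuclease Apex1 was higher by 0.24 (adjusted p = 0.00485), while the stress-induced Gadd45b was lower with a log2 difference of −1.44 (adjusted p = 0.0104), on levels of 0.293 to 2.84 CPM in males and 0.371 to 7.54 CPM in females. Apex1 and Gadd45b did not pass in KO mice alone (adjusted p = 0.142 and 0.308), and no interaction in this list passed. The glycosylase Tdg, which removes oxidized methylcytosine downstream of the TET enzymes, gave 0.16 (adjusted p = 0.159).

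Among the 4 tested TET partners, the isocitrate dehydrogenases that supply the cosubstrate of the TET enzymes moved in opposite directions. Idh1 was higher in males by 0.22 (adjusted p = 0.00454) and Idh2 was lower with −0.33 (adjusted p = 0.000746). Both passed in WT mice, and neither passed in KO mice. The interaction of KO and sex had an unadjusted p-value under 0.05 for 0 of the 4 genes, so the sex differences were not distinguishable between the genotypes. A further list held 8 other readers and proteins related to them by sequence, not all of which bind methylated DNA. Of these, Mbd1 with 0.61 (adjusted p = 0.00124), Zbtb33 with 0.29 (adjusted p = 0.00139) and Mbd5 with 0.17 (adjusted p = 0.0411) were higher in males, and Zbtb4 with −0.27 (adjusted p = 0.0163) was lower. In WT mice alone 2 of the 8 passed and in KO mice alone 1, all higher in males, so Zbtb4 passed in neither genotype alone. The interaction had an unadjusted p-value under 0.05 for 2 of the 8 genes, against 5.96% of all tested genes. At an adjusted p-value under 0.05 it passed for 0 of them.

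Of the 11 subunits of NuRD, the complex that Mbd2 recruits, 6 were higher in males and 0 lower. They were Rbbp4 (0.27, adjusted p = 0.00168), Chd4 (0.26, adjusted p = 0.0296), Gatad2a (0.24, adjusted p = 0.00561), Mta3 (0.23, adjusted p = 0.0141), Rbbp7 (0.11, adjusted p = 0.0319) and Mta2 (0.11, adjusted p = 0.0382), each given as the log2 difference averaged over the genotypes. In WT mice alone only Rbbp4 passed, and in KO mice alone Gatad2a and Mta3. The interaction of KO and sex had an unadjusted p-value under 0.05 for 0 of the 11 genes. For Rbbp4, 5 of 6 mWT mice lay above every fWT mouse. All 6 mKO mice lay above every fKO mouse, as for 7.26% of all tested genes in either direction. The count of 6 of 11 stands beside 14.5% of all tested genes that were higher in males in this contrast.

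Of the 9 tested partners of Trim28 in silencing, Trim24 and Zfp809 passed, while Trim28 itself did not differ between the sexes. Trim24 was expressed at 24.2, 28.6 and 38.6 CPM in mWT, 14.8, 19.8 and 25.0 CPM in mKO, 49.4, 60.0 and 79.7 CPM in fWT and 53.9, 69.3 and 91.2 CPM in fKO (lowest, median and highest mouse). All 12 males lay below all 12 females, as for 2.77% of all tested genes in either direction. The log2 difference was −1.10 in WT (adjusted p = 2.53e-06) and −1.82 in KO mice (adjusted p = 6.72e-10), and the difference between both, the interaction, was −0.73 (standard error 0.195, unadjusted p = 0.00102, adjusted p = 0.745). Zfp809, a KRAB zinc finger protein that recruits Trim28 to proviral DNA, was higher in males by 0.64 in WT (adjusted p = 0.00287) and by 0.47 in KO mice (adjusted p = 0.0281).

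Of the 11 tested cell cycle markers, 0 passed between KO and WT mice or between the sexes at an adjusted p-value under 0.05. Their median log2 fold change was −0.46 in mKO compared to mWT mice, with 10 of 11 below 0 and 2 at an unadjusted p-value under 0.05 (1 higher, 1 lower), and −0.07 in fKO compared to fWT mice, with 0 at that level. The share of all tested genes at that level was 10.6% in males and 4.87% in females. Between the sexes the median was 0.58 in WT mice, where 4 markers had an unadjusted p-value under 0.05, all higher in males, and 0.18 in KO mice, where 1 did. At the stricter adjusted p-value under 0.05, 0 of the 11 markers passed, against 17.3% of all tested genes in WT and 14.4% in KO mice. The counts of 4 and 1 at the unadjusted level have no share of all genes beside them and are not read as an excess. The proliferation marker Mki67 was expressed at 1.68 to 5.22 CPM in mWT, 0.741 to 3.51 CPM in mKO, 0.970 to 4.05 CPM in fWT and 0.701 to 3.99 CPM in fKO mice. With the mean of each group subtracted, 4 pairs of genes were correlated over the 24 mice, with two-sided permutation tests within groups. Uhrf1 and Mki67 gave Pearson r = 0.546 (permutation p = 0.0110, adjusted over the 4 pairs 0.0442) and Spearman rho = 0.547 (permutation p = 0.0125, adjusted 0.0501). After leaving out mWT mice 4 and 5, the farthest from the median of Uhrf1, r was 0.518 over 22 mice (permutation p = 0.0234, adjusted 0.0936), so the call did not hold without them. Dnmt1 and Uhrf1 gave r = 0.444 (permutation p = 0.0281, adjusted 0.0562) and rho = 0.428, but r fell to 0.275 without fKO mouse 4 and fWT mouse 2, so this relation rests on those mice. For Dnmt1 and Mki67 r was 0.378 (permutation p = 0.103, adjusted 0.137), and for Dnmt3a and Dnmt3b it was −0.204 (permutation p = 0.386, adjusted 0.386).

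For each tested gene, the expressed genes whose log2 CPM was most like it over the 24 libraries were listed by Pearson r, as a description without a test, since the libraries share sex and genotype groups. The cytochrome Cyp2b10 had the highest r with Tet2 (0.911, and 0.731 with the group means subtracted), followed by the prolactin receptor gene Prlr (0.872 and 0.582) and Gm21973 (0.870 and 0.512), which overlaps Prlr. All 3 were lower in males, with log2 differences of −3.39 for Cyp2b10, −2.22 for Prlr and −0.94 for Gm21973. Cyp2b10 was expressed at 0.706 to 7.91 CPM in males and 23.8 to 56.1 CPM in females. For Mbd2 they were Hsd3b2 (0.961 and 0.851), a steroid dehydrogenase, the peroxisomal carrier gene Slc25a17 (0.934 and 0.706) and Ugt2b1 (0.921 and 0.620), a glucuronosyltransferase. All 3 were higher in males, with log2 differences of 0.91 for Hsd3b2, 0.54 for Slc25a17 and 1.10 for Ugt2b1.

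**Figure D4:**
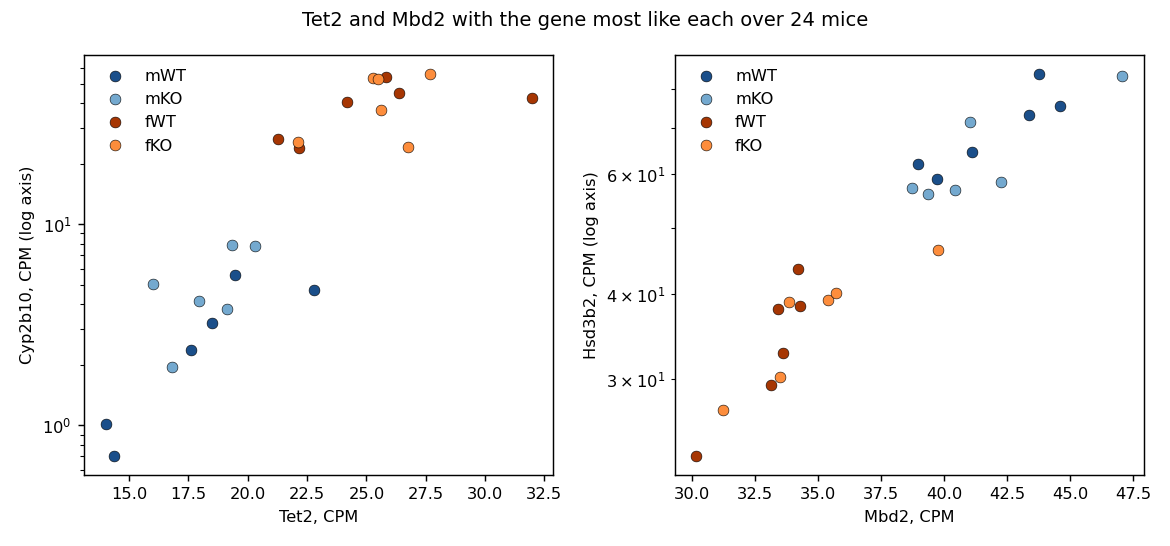
CPM of Cyp2b10 against Tet2 and of Hsd3b2 against Mbd2 in 24 mice, coloured by group (vertical axes are log axes). In the left panel the male mice lie at low and the female mice at high levels of both genes, and in the right panel the order of the sexes is the opposite.

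For the other 5 genes the highest correlations were lower as long as the group means were not subtracted. They were found for Dnmt1 with Rrbp1 (r = 0.755), Map7d1 (0.742) and Sars2 (0.734), and for Dnmt3a with ENSMUSG00000118516 (0.778), Atxn2 (0.761) and Zeb1 (0.737). Dnmt3b was most like Kif28 (0.740), Ahctf1 (0.740) and Abtb2 (0.714), Tet3 most like Mllt10 (0.800), Atxn2 (0.792) and Srrm2 (0.781), and Trim28 most like Cpsf4l (0.762), Mcrip2 (0.752) and Gnl1 (0.737). Atxn2 was thus among the 3 genes most like both Dnmt3a and Tet3. With the group means subtracted, the highest r among the genes listed was 0.762 for Dnmt1 and 0.800 for Dnmt3a. It was 0.743 for Dnmt3b, 0.797 for Tet3 and 0.853 for Trim28. Each of these values was above the 0.731 of Tet2 with Cyp2b10, so the order given above holds only without the subtraction. None of these 14 genes passed the test between the sexes (adjusted p from 0.162 to 0.857).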

How the data were processed

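Liver RNAseq was analysed in 24 mice (mWT, mKO, fWT and fKO, 6 per group, 1 library per mouse), grouped by their sample labels. The authors prepared stranded mRNA libraries, read them as 100 bp single-end reads, demultiplexed them with bcl2fastq 2.19, used fastp 0.20 for trimming, STAR 2.7a for alignment to GRCm38.p6 and featureCounts for counting. The authors deposited unnormalised counts, 1 value for each Ensembl gene and library. The annotation release, the strand setting and the treatment of reads with several matches are not given in the sources used here, so genes with overlaps or near-identical copies are uncertain.

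Of the 25746 genes listed, 25635 were matched to GENCODE M21 for symbols, coordinates and exon lengths. Genes that reached 0.66 CPM in 6 or more libraries were tested with edgeR 4.0.16 (TMM, quasi-likelihood test, robust dispersions, a mean per group, all 24 libraries) in R 4.3.3, with Benjamini-Hochberg adjustment. The study also used edgeR, but called genes at an unadjusted p-value under 0.01, whereas an adjusted p-value under 0.05 is used here. Its filter names the same CPM and number of libraries but left more genes than the 12330 tested here, so that step was not matched. Uhrf1 and Tet1, below the filter, were fitted without it. DESeq2 1.42.0 was an alternative, together with its size factors, other filters, dispersions and deviances, removal of the Mup genes, each sex fitted on its own, a replicate block and each mouse left out in turn. Within groups, all 60 pairs of mice differed by more than sampling noise (lowest chi-square per gene 8.14). Correlations used log2 of CPM plus 0.5 and 100000 permutations. Similar transcripts were searched with blastn 2.17.0 (at least 50 bases at 90% identity), promoters were taken from RefSeq, and the plots were made in Python 3.11.15 (matplotlib 3.10.9). The tests were checked on simulated counts with known changes.

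The 9 genes, the partner lists, the cell type markers and the tests were chosen with earlier results of these data known. Named are the 9 genes, the listed partners with an adjusted p-value under 0.05 in any contrast or otherwise the smallest unadjusted p-values, and the 3 genes most like each tested gene. Mki67 and Tdg lie outside this rule and were named after their values were seen. The marker lists of bile duct cells (4 genes, 2 tested, 1 lower in males), neutrophils (2 genes, 0 tested) and the cells named in the text were applied alike. Methylation sequencing and the other assays of the study were not analysed here, and 1 single-gene result is not reported here.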

Additional observations from a re-analysis of the deposited data

Results flagged for a closer look

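Within the groups of 6 mice, the highest or the lowest mouse stood apart from the other 5 by Dixon's test in 4 of the 36 combinations of gene and group, where chance gives about 1 in 20. Dnmt3b was at 2.20 CPM in mWT mouse 5, while the other mWT mice lay between 0.573 and 1.12 CPM. It was at 1.85 CPM in fWT mouse 4, above the other fWT mice at 0.919 to 1.26 CPM. Tet3 was at 19.6 CPM in mWT mouse 4, below the other mWT mice at 25.4 to 28.9 CPM. Mbd2 was at 30.2 CPM in fWT mouse 4, below the other fWT mice at 33.1 to 34.3 CPM. The sex difference of Mbd2 in WT mice had a log2 value of 0.31 to 0.36 over all fits with 1 mouse left out, this one included.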

How the results depend on the processing

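The number of the 9 genes that passed stayed at 0 for the KO contrasts and at 2 for the sex differences under every setting run, except that Tet1 made it 3 in the averaged sex difference without a filter. Without 1 mouse, the counts ran from 0 to 0 and from 2 to 2. Tet2 and Mbd2 kept their direction and passed under all settings, with averaged log2 differences of −0.54 to −0.46 and 0.27 to 0.32. Mice that share a number are not the same animal, and in none of the 6 pairings of groups did all mice with the same number correlate at over 0.1. Their r was −0.122 to 0.155 between mWT and mKO, −0.328 to 0.156 between fWT and fKO, −0.084 to 0.120 between mWT and fWT and −0.278 to 0.159 between mKO and fKO. It was highest between mKO and fWT (0.0039 to 0.244, 4 of 6 over 0.1, 3 of 6 mice correlating best with their own number), and the numbers were not taken as pairs. Under the replicate block the counts were again 0 and 2, and estimates near 0 changed sign for Dnmt1 in females (−0.000425) and for Tet3 between the sexes in WT (−0.00157). The relation of Uhrf1 and Mki67 (r = 0.518) no longer passed without the mice farthest from the median, mWT 4 and mWT 5. DESeq2 gave no adjusted p-value in 4 cases. With 1 to 21 reads per library, Uhrf1 and Tet1 are limited by depth.

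Leaving out 1 mouse changed the sign of 20 log2 estimates, none of which passed in any of these fits, and the lowest and highest values over the fits without 1 mouse stand in brackets. The KO effect in males changed sign for Dnmt1 (−0.11 to 0.0088), Dnmt3b (−0.089 to 0.33), Mbd2 (−0.057 to 0.0041) and Tet2 (−0.024 to 0.12). The KO effect in females changed sign for Dnmt1 (−0.060 to 0.10), Tet2 (−0.036 to 0.085) and Tet3 (−0.14 to 0.0014). The averaged KO effect changed sign for Dnmt1 (−0.051 to 0.030) and Tet2 (−0.0075 to 0.064). The interaction changed sign for Dnmt1 (−0.15 to 0.019), Dnmt3a (−0.058 to 0.11), Tet2 (−0.051 to 0.11) and Tet3 (−0.040 to 0.10). The sex difference in WT changed sign for Dnmt3b (−0.34 to 0.12), Tet3 (−0.038 to 0.078) and Trim28 (−0.0077 to 0.063). The sex difference in KO changed sign for Dnmt1 (−0.064 to 0.10) and Tet3 (−0.030 to 0.11). The averaged sex difference changed sign for Tet3 (−0.0099 to 0.065) and Trim28 (−0.039 to 0.0041).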
